A study of Mus musculus with 12 samples.

Results

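31 genes of cholesterol and fatty acid synthesis, together with the genes that set their activity through the SREBP transcription factors, were followed in newborn mouse germ cells and testis somatic cells. They were chosen by gene name, as 31 of the 54532 genes of the count table, and every one of the 31 was found there. They comprised 7 genes of the mevalonate arm, 11 of the sterol arm, 5 regulators, 6 fatty acid enzymes, the sterol carrier gene Stard4 and the phosphatidate phosphatase gene Lpin1. All 31 passed the filter on low counts in every comparison.

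RNA was sequenced in bulk from mice carrying a GFP transgene under the Pou5f1 (OCT4) promoter, which labels germ cells. Saline or dexamethasone (dex, 10 μg per g), a synthetic glucocorticoid, was injected into pregnant dams on E17.5 and again on E18.5, then into the newborn pups on PN0. Testes were taken on PN1 and sorted into GFP+ germ cells and GFP- somatic cells. The 4 groups, saline germ, dex germ, saline somatic and dex somatic, held 3 libraries each, and all animals carried the transgene. Each library pooled testes from separately dosed litters, and the GFP- fraction was a mixture of the testis's somatic cell types. In somatic libraries, fewer cells of a type and less RNA per cell therefore cannot be told apart. Levels are given as CPM (counts scaled to library size, with TMM over all 12 libraries), one value a library or mean ± SD with n = 3. A gene was called where the Benjamini-Hochberg adjusted p of edgeR's quasi-likelihood test was at or under 0.05.

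The libraries held 18459692 to 25178477 counts, and within groups they correlated at r = 0.994 to 0.996 on the log2 CPM scale. All 8 germ cell markers were called higher in germ cells, and all 7 Sertoli, 7 Leydig, 6 macrophage and 5 stromal markers were called lower. Of 5 peritubular, 5 endothelial and 5 erythroid markers, 4, 3 and 3 were called lower, and 1 endothelial marker, Pecam1, was called higher. In dex-treated soma, 4 of 5 glucocorticoid response genes were called higher. Of the same 5 in germ cells, 1 was called higher and 1 lower.

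Cells make cholesterol from acetyl-CoA through mevalonate, farnesyl diphosphate, squalene and lanosterol, and make fatty acids by carboxylating acetyl-CoA and extending the chain. SREBP proteins are held in the endoplasmic reticulum with their escort SCAP while INSIG proteins and sterols are present, and are released to the nucleus when sterol falls, where they activate genes of both routes. SREBP2, the product of Srebf2, mainly drives sterol genes, and SREBP1, the product of Srebf1, mainly fatty acid genes. In the testis, cholesterol is the precursor of the androgens that Leydig cells make.

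Promoter windows from RefSeq (GRCm38.p6), 250 bases before to 50 after a gene's start, were matched for 25 of the 31 genes. Fdft1, Fdps, Scd1, Scd2, Sqle and Stard4 were not among them. Both strands were searched for the NF-Y box (CCAAT), the core of the sterol regulatory element (SRE, TCACNCCA), the E-box (CACGTG) and the core of the glucocorticoid response element (GRE, ACANNNTGT). The NF-Y box was found in 20 of the 25 genes (80%), and in 37.4% of all 32851 windows and 41.1% of all 27025 genes with a window. The SRE core was found in 3 genes, Hmgcs1, Msmo1 and Srebf2 (12%, against 4.97% of all genes). The E-box was found in 5 genes (20%, against 8.09%), and the GRE core in 1 gene, Acat2 (4%, against 7.90%). These counts describe letters in the windows only. The 250 bases before the RefSeq start of 5 genes are printed as examples from the high, low and middle parts of the germ-to-soma contrast described next. Lpin1, the highest gene of that contrast, is not printed. Insig1 and Lss were the regulator and the sterol enzyme gene highest in germ cells relative to soma, Ebp and Tm7sf2 the sterol enzyme genes lowest, and Hmgcs1 did not pass the test. Capitals mark the SRE core, the NF-Y box (ATTGG on the printed strand) and the E-box, no matches overlapped in these windows, and the last base is the one before the RefSeq start. Insig1 lies at chr5:28071162-28071411 (+), Lss at chr10:76531355-76531604 (+), Ebp at chrX:8193513-8193762 (-), Tm7sf2 at chr19:6067851-6068100 (-) and Hmgcs1 at chr13:119690101-119690350 (+). The Tm7sf2 window lies inside the gene as counted (chr19:6062821-6077197). The Insig1 and Lss windows run past the starts of the genes as counted (28071363 and 76531588).
Insig1: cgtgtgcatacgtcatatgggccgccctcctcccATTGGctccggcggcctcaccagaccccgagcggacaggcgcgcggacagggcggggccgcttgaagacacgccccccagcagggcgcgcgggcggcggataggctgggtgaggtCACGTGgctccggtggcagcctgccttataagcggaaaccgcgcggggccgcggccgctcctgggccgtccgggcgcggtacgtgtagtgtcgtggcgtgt
Lss: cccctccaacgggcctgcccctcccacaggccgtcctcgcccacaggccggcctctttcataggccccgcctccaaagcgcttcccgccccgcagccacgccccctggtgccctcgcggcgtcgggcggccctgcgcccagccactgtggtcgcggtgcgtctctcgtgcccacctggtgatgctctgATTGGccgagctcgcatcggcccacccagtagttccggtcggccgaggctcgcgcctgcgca
Ebp: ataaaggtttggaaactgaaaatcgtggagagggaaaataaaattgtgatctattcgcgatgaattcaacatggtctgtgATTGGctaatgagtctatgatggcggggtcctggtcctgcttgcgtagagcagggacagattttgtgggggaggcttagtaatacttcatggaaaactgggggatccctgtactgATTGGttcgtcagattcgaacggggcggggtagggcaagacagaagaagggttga
Tm7sf2: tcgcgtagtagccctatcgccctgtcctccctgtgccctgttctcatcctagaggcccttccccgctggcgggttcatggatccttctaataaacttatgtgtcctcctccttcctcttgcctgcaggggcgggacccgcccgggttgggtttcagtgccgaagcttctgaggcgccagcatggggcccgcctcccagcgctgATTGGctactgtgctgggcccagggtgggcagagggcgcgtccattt
Hmgcs1: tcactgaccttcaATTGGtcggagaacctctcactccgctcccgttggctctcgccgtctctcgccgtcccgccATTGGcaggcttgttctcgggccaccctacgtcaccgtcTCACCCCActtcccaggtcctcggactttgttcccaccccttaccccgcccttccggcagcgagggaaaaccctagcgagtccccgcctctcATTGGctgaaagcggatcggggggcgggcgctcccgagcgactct

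Insig1 held 1 NF-Y box and the E-box, Lss 1 NF-Y box, Ebp 2, Tm7sf2 1, and Hmgcs1 3 with its SRE core. The windows of genes that were high in germ cells and of genes that were low both held the NF-Y box, and of these 5 windows that of Hmgcs1 alone held the SRE core.

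Comparison of saline germ cells with saline somatic cells asked which steps of the pathways each population expressed. Of the 31 genes, 27 were called, 17 higher and 10 lower in germ cells, while 76.5% of all genes tested were called (39.8% higher and 36.7% lower). The median log2 fold change of the 31 genes was 0.35, against 0.07 over all 18870 genes tested. The order of these medians turned with no filter on low counts (0.40 for the 31 genes and 0.48 over all 33331 genes then tested), and with at least 10 counts in every library they were 0.40 and -0.04. Groups did not overlap for 18 genes that were higher in germ cells and 10 that were lower, which compares with 42.9% and 36.7% of all genes (79.5% together). The summed level of the 31 genes was 5288 to 5614 CPM in saline germ cells and 4603 to 5108 CPM in saline soma. Directions were mixed among the 31 genes, as they were over all genes tested, so the mixture is not particular to these pathways.

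**Figure D1:**
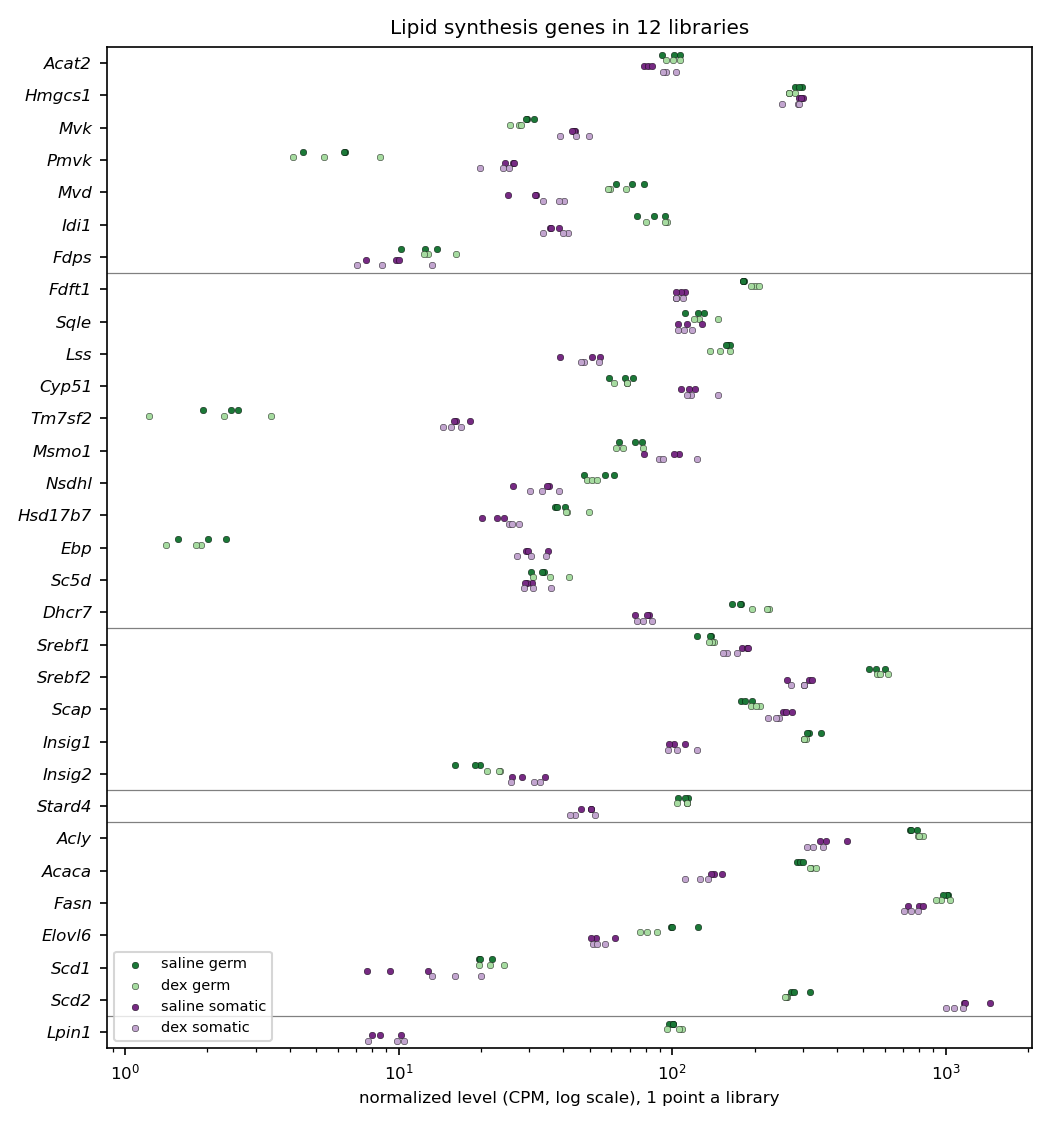
Level of each of the 31 genes in each of the 12 libraries, in CPM on a log axis, with 1 point a library and lines between the groups of the pathway. The points of Ebp, Tm7sf2, Pmvk and Scd2 in germ cells lie to the left of all their somatic points, and those of Lpin1 lie to the right.

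In the mevalonate arm, 3 of 7 genes were called higher in germ cells and 2 lower, against 39.8% and 36.7% of all genes. Mvd, which encodes the decarboxylase that makes isopentenyl diphosphate, stood at 62.2, 79.0 and 71.4 CPM in saline germ cells and at 25.2, 31.7 and 31.4 CPM in saline soma. The populations did not overlap, and Mvd was 2.30-fold higher in the germline (log2 fold change 1.20 ± 0.125 SE, adjusted p = 2.5e-06). Idi1, the isomerase of the following step, read 85.8, 94.5 and 74.5 CPM against 38.7, 35.7 and 36.2 CPM, a difference of 1.14 ± 0.111 on the log2 scale (adjusted p = 1.4e-06).

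Pmvk, which encodes the kinase that acts just before Mvd, went the opposite way. It was at 6.37, 4.48 and 6.29 CPM in saline germ cells and at 26.3, 24.5 and 26.3 CPM in saline soma, 4.69-fold lower in the germline (log2 fold change -2.23 ± 0.178, adjusted p = 2.3e-07). Mvk, the first kinase of the arm, was also lower, at 30.1 ± 1.15 CPM against 43.6 ± 0.434 CPM (log2 fold change -0.60 ± 0.104, adjusted p = 0.0002). Acat2, the acetoacetyl-CoA thiolase gene, was called higher by a small margin (log2 fold change 0.23 ± 0.0881, adjusted p = 0.0334). That call was lost without saline germ replicate 1, saline germ replicate 2 or saline somatic replicate 1 (adjusted p = 0.215, 0.0674 and 0.179). Hmgcs1, which encodes the synthase that makes HMG-CoA, had 290.2 ± 9.38 CPM in germ libraries, 296 ± 4.35 CPM in somatic libraries, and did not pass the test, and neither did Fdps, the farnesyl diphosphate synthase gene (12.2 ± 1.81 against 9.14 ± 1.32 CPM).

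In the sterol arm, which leads through squalene to cholesterol, genes were called in both directions, in shares near those of all genes tested. Of its 11 genes, 5 were called higher in germ cells and 4 lower, against 39.8% and 36.7% of all genes. Lss, which encodes the cyclase that makes lanosterol, was at 160, 163 and 157 CPM in saline germ cells and at 51.0, 54.3 and 38.8 CPM in saline soma. It was 3.18-fold higher in germ cells, with no overlap (log2 fold change 1.67 ± 0.116, adjusted p = 6e-08). Fdft1, the squalene synthase gene, was 1.62-fold higher and Dhcr7, the reductase gene of a last step of cholesterol synthesis, 2.11-fold higher. Nsdhl and Hsd17b7, whose products take part in removing methyl groups from the sterol, were both 1.64-fold higher.

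Ebp, which encodes the isomerase that moves the double bond of the sterol ring, had the largest difference in either direction among the 31 genes. Its levels were 2.01, 2.35 and 1.56 CPM in saline germ cells and 29.2, 29.6 and 35.2 CPM in saline soma. Every germ library was far below every somatic library, and the gene was 16.6-fold lower in the germline (log2 fold change -4.05 ± 0.197, adjusted p = 2.5e-09). Tm7sf2, which encodes a sterol C14 reductase, was at 2.58, 1.92 and 2.44 CPM against 16.2, 16.0 and 18.3 CPM, 7.57-fold lower (log2 fold change -2.92 ± 0.209, adjusted p = 8.3e-08). Cyp51, the lanosterol demethylase gene, was lower at 66.0 ± 6.75 CPM against 115 ± 6.61 CPM (log2 fold change -0.86 ± 0.0998, adjusted p = 6.9e-06), and Msmo1, the methyl oxidase gene, at 71.5 ± 6.87 against 95.4 ± 14.6 CPM (log2 fold change -0.48 ± 0.125, adjusted p = 0.00376). Sqle, the squalene epoxidase gene, and Sc5d, the desaturase gene of a late step, did not pass the test.

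The low germ cell levels of Ebp, Tm7sf2 and Pmvk were 6.29%, 13.7% and 22.2% of the somatic mean. Measured in the same way, Sertoli markers in saline germ libraries stood at 0.707 to 6.71% of their somatic level, Leydig markers at 1.37 to 18.1% and stromal markers at 0.508 to 2.73%. The medians of these lists were 2.07%, 2.72% and 1.52%, and their highest values were those of Gata1, Star and Pdgfra. The other somatic lists reached higher, with macrophage markers at 1.12 to 41.7%, peritubular at 0.334 to 70.8%, erythroid at 0 to 89.7% and endothelial at 10.4 to 158%, and their medians were 3.92%, 10.6%, 1.09% and 41.2%. The part of somatic RNA in the germ cell levels of these genes was not tested. Of the reverse kind, germ cell markers in saline soma were at 0.116 to 5.03% of their germ cell level.

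The 5 regulators were all called, 2 higher and 3 lower, where 76.5% of all genes were called, and both pairs of related genes split. Srebf2 was at 523, 601 and 555 CPM in saline germ cells and 317, 325 and 263 CPM in saline soma, 1.77-fold higher (log2 fold change 0.83 ± 0.0950, adjusted p = 6.4e-06). Srebf1 was lower, at 133 ± 8.74 CPM against 186 ± 4.76 CPM (log2 fold change -0.55 ± 0.0793, adjusted p = 4.7e-05). In FPKM, the authors' values per length and depth, the ratio of Srebf2 to Srebf1 was 2.96 to 3.54 in saline germ libraries and 1.09 to 1.38 in saline somatic libraries.

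Insig1, which holds the SREBP-SCAP complex in the endoplasmic reticulum and is itself an SREBP target, was at 317, 351 and 311 CPM in saline germ cells and 102, 97.3 and 112 CPM in saline soma. It was 3.01-fold higher in the germline (log2 fold change 1.59 ± 0.0862, adjusted p = 6.4e-09). Insig2, its paralog, was lower, at 18.3 ± 1.95 CPM against 29.5 ± 4.26 CPM (log2 fold change -0.75 ± 0.145, adjusted p = 0.00048). The FPKM ratio of Insig1 to Insig2 was 18.4 to 22.1 in saline germ libraries and 3.19 to 4.43 in saline somatic libraries. Scap was lower in the germline (log2 fold change -0.56 ± 0.0737, adjusted p = 2.2e-05). Stard4, which carries sterol between membranes, was 2.14-fold higher.

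All 6 fatty acid genes were called, 5 higher in germ cells and 1 lower, where 76.5% of all genes were called. Acly, which makes cytosolic acetyl-CoA from citrate, was 1.90-fold higher, Acaca, the carboxylase of the committed step, 1.94-fold, and Elovl6, an elongase of long saturated chains, 1.87-fold. Fasn, the fatty acid synthase gene, was 1.22-fold higher, at 1003 ± 21.8 CPM against 785 ± 49.3 CPM (log2 fold change 0.29 ± 0.0770, adjusted p = 0.00463). Every germ library was above every somatic library.

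The stearoyl-CoA desaturase genes Scd1 and Scd2, which introduce the double bond of oleate and are neighbours on chromosome 19, went opposite ways. Scd2 was at 272, 319 and 279 CPM in saline germ cells and 1165, 1451 and 1180 CPM in saline soma, 4.56-fold lower (log2 fold change -2.19 ± 0.103, adjusted p = 1.8e-09). Scd1 was at 19.7, 21.9 and 19.8 CPM against 7.63, 12.8 and 9.34 CPM, 1.97-fold higher (log2 fold change 0.98 ± 0.192, adjusted p = 0.00054). Scd2 was the more abundant of the pair in all 12 libraries, with an FPKM ratio to Scd1 of 12.3 to 12.9 in saline germ cells and 101 to 135 in saline soma.

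Lpin1, whose product makes diacylglycerol from phosphatidate for glycerolipid synthesis and also acts in the nucleus as a brake on SREBP, had the largest rise. It was at 101, 97.0 and 100.5 CPM in saline germ cells and at 8.03, 8.58 and 10.2 CPM in saline soma. That is 10.6-fold higher in germ cells with no overlap (log2 fold change 3.41 ± 0.119, adjusted p = 1.3e-10).

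**Figure D2:**
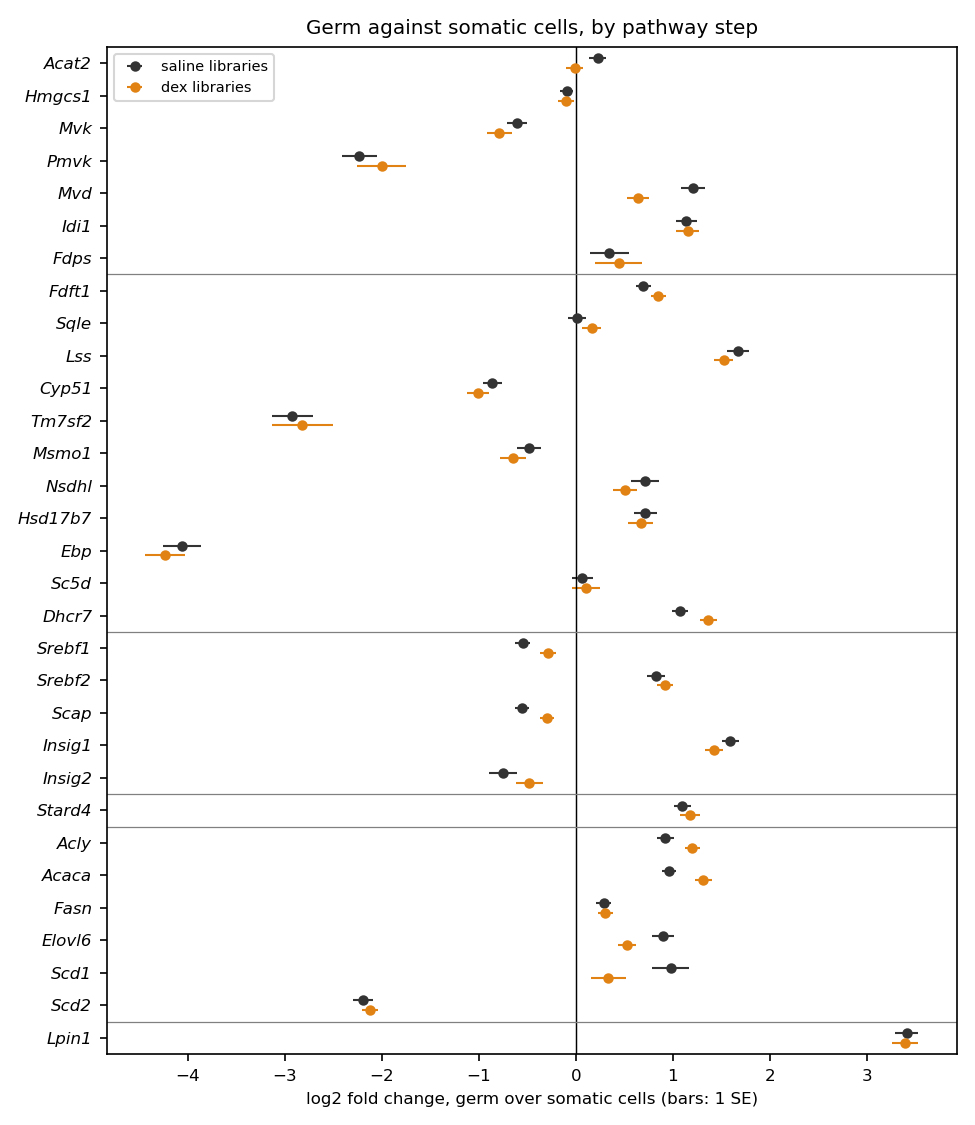
Log2 fold change of germ over somatic cells for each gene in pathway order, fitted in the 6 saline libraries (dark) and in the 6 dex libraries (orange), with bars of 1 SE. In both fits Lpin1 lies above 3 and Ebp below -4.

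The same comparison in the 6 dex libraries, which share no sample with the saline comparison, called 25 of the 31 genes, 15 higher and 10 lower, where 76.3% of all genes were called. All 25 were called in the same direction in saline, and 30 of 31 genes had the same sign. The share of all genes that kept their direction was not counted, so this agreement is not set apart from that of other genes. Acat2 and Scd1 were called in saline only. Scd1 was 0.98 ± 0.192 higher on the log2 scale in saline germ cells and 0.33 ± 0.181 higher in dex germ cells, and the fold change of Acat2 was -0.01 ± 0.0852 in the dex libraries. Whether either gene's contrast differed between saline and dex is the difference of dex effects given further on, which neither passed.

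Levels of different genes were compared in FPKM only, and their order depends on the gene lengths used. These were 5593 bases for Tm7sf2 and 10787 for Lss, for example, and other lengths were not tried. In saline germ cells the order began with Acly at 143 ± 4.93 FPKM, Insig1 at 105 ± 6.54, Fasn at 91.3 ± 1.53, Srebf2 at 77.6 ± 5.40 and Hmgcs1 at 63.0 ± 2.09, and the libraries of these neighbours did not overlap. It ended with Ebp at 0.850 ± 0.167 and Tm7sf2 at 0.413 ± 0.0627 FPKM. In saline soma Scd2 led at 222 ± 20.4 FPKM, followed by Acly at 69.1 ± 5.96 and Fasn at 68.6 ± 3.46, which overlapped each other, and then Hmgcs1 at 61.8 ± 2.92 FPKM. The lowest there were Scd1 at 1.95 ± 0.449 and Lpin1 at 0.887 ± 0.125 FPKM.

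Some of these genes share sequence or ground with others, which limits how far their counts belong to them alone. Of the 64-base words of their transcripts, 36.2% for Acat2, 28.2% for Acaca, 24.5% for Fdps, 24.3% for Idi1 and 23.6% for Fdft1 also occurred in other annotated genes. Tm7sf2 overlaps Vps51 on the same strand, and over all libraries Vps51 had 63% of the counts of Tm7sf2. On the opposite strand, Fdft1 overlaps Ctsb, Cyp51 overlaps Akap9 and Srebf1 overlaps Rai1. Ctsb had 154% of the counts of Fdft1, Akap9 114% of those of Cyp51 and Rai1 90.4% of those of Srebf1. The strand setting of the counting is not given in the sources used here, and the part of shared reads in these genes was not tested. For Scd1 and Scd2 the shared words were 3.50% and 2.34%, and for Ebp, Pmvk and Lpin1 none were found.

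Dex against saline in germ cells asked which of these genes responded to the glucocorticoid. None of the 31 was called by edgeR, where 1.25% of all 18550 genes tested were called. At an unadjusted p under 0.05 there were 5, 3 higher and 2 lower, against 14.7% of all genes (7.06% higher and 7.69% lower), and DESeq2 called 2, Elovl6 and Dhcr7. The log2 fold changes ran from -0.41 to 0.30 with a median of 0.05, 17 were positive and 14 negative (49.6% and 50.4% of all genes), and 26 of 31 lay within 0.2 of zero, where 55.8% of all genes did. Their standard errors ran from 0.0615 for Acly to 0.361 for Tm7sf2, with a median of 0.0918. All genes tested were not matched to the 31 by level, and the part of level in these shares was not tested.

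Elovl6 had the smallest p in germ cells. It read 99.2, 124 and 99.7 CPM with saline and 76.2, 81.1 and 87.9 CPM with dex. Every dex library was below every saline library, and the log2 fold change was -0.41 ± 0.0988, with an adjusted p of 0.0631 by edgeR and 0.00887 by DESeq2. Dhcr7 read 165, 179 and 177 CPM with saline and 226, 196 and 222 CPM with dex. Its dex libraries were all above its saline libraries (log2 fold change 0.30 ± 0.0755, adjusted p = 0.0737 by edgeR and 0.0194 by DESeq2). Elovl6 was called without saline germ replicate 3 (adjusted p = 0.0472) and Dhcr7 without dex germ replicate 2 (0.0260). Groups did not overlap for 6 genes that were higher and 4 that were lower, and for 10.8% and 9.30% of all genes (20.1% together).

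Scd2 had 272, 319 and 279 CPM in saline and 263, 260.3 and 258 CPM in dex germ cells, a log2 fold change of -0.17 ± 0.0731 (adjusted p = 0.302). Acaca had 286, 293 and 301 against 322, 334 and 320.4 CPM (0.14 ± 0.0625, adjusted p = 0.308). Insig2 had 16.1, 19.8 and 19.0 against 21.0, 23.5 and 23.2 CPM (0.29 ± 0.133, adjusted p = 0.328). In all 3 genes the groups did not overlap but the adjusted p missed the threshold. The log2 fold changes of Mvd and Fdft1 were -0.21 ± 0.104 (adjusted p = 0.380) and 0.13 ± 0.0663 (adjusted p = 0.403).

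Neither transcription factor gene passed the test in germ cells. Srebf1 had a log2 fold change of 0.06 ± 0.0758 and Srebf2 of 0.05 ± 0.0696. Insig1, at 305 ± 2.89 CPM with dex, had -0.11 ± 0.0679, and Lpin1, at 104 ± 6.71 CPM with dex, 0.05 ± 0.0792. Insig1 and Lpin1 did not pass it either. The summed level of the 31 genes was 5398 to 5522 CPM in dex germ cells, within the 5288 to 5614 CPM of saline germ cells.

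**Figure D3:**
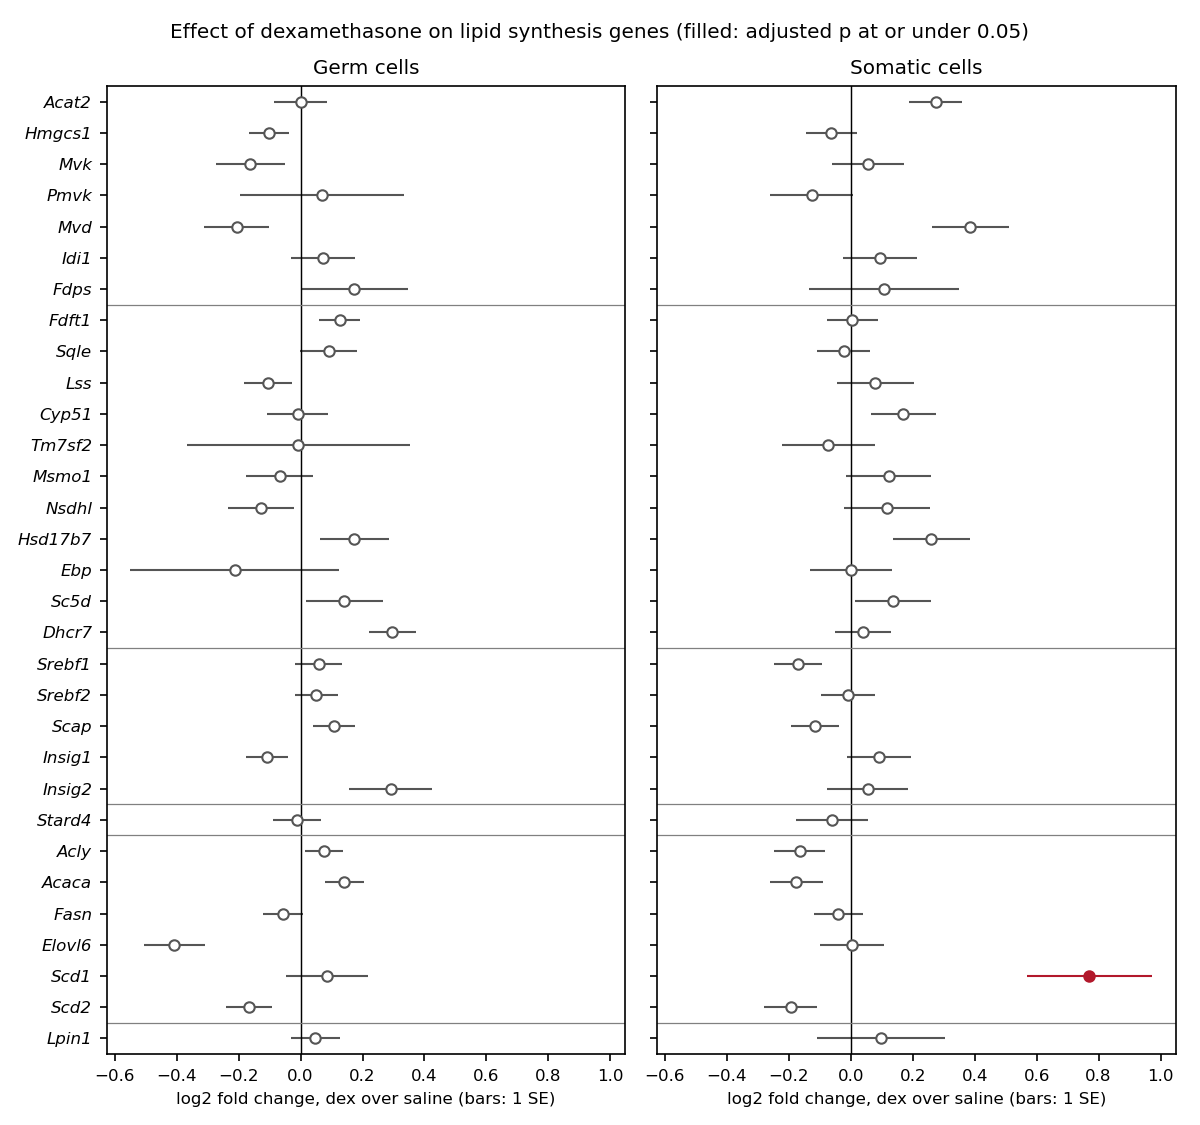
Log2 fold change of dex over saline for each gene in germ cells (left) and somatic cells (right), with bars of 1 SE and a filled point where the adjusted p was at or under 0.05. Scd1 in soma, at 0.77, is the filled point, and no point in the germ cell panel is filled.

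In soma, 1 of the 31 genes was called with dex, Scd1, where 3.91% of all 16766 genes tested were called (2.74% higher). Scd1 read 7.63, 12.8 and 9.34 CPM with saline and 20.0, 16.1 and 13.3 CPM with dex. All 3 dex libraries were above all 3 saline libraries, by a small gap, and the gene was 1.71-fold higher (log2 fold change 0.77 ± 0.202, adjusted p = 0.0459). The call was lost with library totals in place of TMM (adjusted p = 0.0639), with all 12 libraries in 1 fit (0.0536), and in 4 fits that left out a library, of dex replicates 1 and 2 (0.184 and 0.104) and saline replicates 1 and 3 (0.175 and 0.145). Over all alternatives and left-out libraries its adjusted p ran from 0.0028 to 0.184.

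Scd2, the far more abundant desaturase gene, did not pass the test in soma, at 1165, 1451 and 1180 CPM with saline and 1159, 999 and 1075 CPM with dex (log2 fold change -0.19 ± 0.0859, adjusted p = 0.277). The FPKM ratio of Scd2 to Scd1 was 101 to 135 in saline and 51.3 to 72.0 in dex somatic libraries. In germ cells it was 12.3 to 12.9 with saline and 9.62 to 11.7 with dex, and in both populations the dex ratios lay below the saline ratios without overlap. The ratio of Insig1 to Insig2 also separated in germ cells (18.4 to 22.1 with saline, 14.7 to 16.2 with dex) but not in soma. That of Srebf2 to Srebf1 separated narrowly in soma (1.088 to 1.375, then 1.382 to 1.494) but not in germ cells. No ratio was tested, and how often ratios of other genes separate was not counted.

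Of the other 30 genes in soma, the 2 with the smallest p belonged to the mevalonate arm. Acat2 was at 78.9, 81.9 and 84.6 CPM with saline and 103, 94.6 and 92.4 CPM with dex (log2 fold change 0.27 ± 0.0861, adjusted p = 0.103). Mvd was at 25.2, 31.7 and 31.4 against 40.3, 38.6 and 33.7 CPM (0.39 ± 0.124, adjusted p = 0.112). In both, dex libraries were all above saline libraries without a call. Hsd17b7 had a log2 fold change of 0.26 ± 0.125 (adjusted p = 0.324).

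The genes of SREBP1 and of the first fatty acid steps had negative values in soma, and none was called. Srebf1 was at 181, 188 and 189 CPM with saline and 172, 159 and 154 CPM with dex, without overlap (log2 fold change -0.17 ± 0.0775, adjusted p = 0.290). Acaca had -0.18 ± 0.0864 (adjusted p = 0.338) and Acly -0.17 ± 0.0833 (adjusted p = 0.354). Srebf2 had -0.01 ± 0.0874, Insig1 0.09 ± 0.103, Insig2 0.05 ± 0.131 and Lpin1 0.10 ± 0.206, and the signs of Srebf2, Insig1 and Insig2 turned in 1 or more fits that left out a library.

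Across the 31 genes in soma, log2 fold changes ran from -0.19 to 0.77 with a median of 0.04, 18 were positive and 13 negative (48.8% and 51.2% of all genes), and 27 lay within 0.2 of zero, where 54.2% of all genes did. As in germ cells, all genes tested were not matched to the 31 by level. At an unadjusted p under 0.05 there were 5, 3 higher and 2 lower, against 16.1% of all genes (8.90% higher and 7.21% lower). Groups did not overlap for 4 higher and 5 lower genes, and for 9.19% and 12.3% of all genes (21.5% together). The summed level was 4300 to 4789 CPM with dex and 4603 to 5108 CPM with saline.

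Markers of somatic cell types moved in the same libraries, where 3.91% of all genes tested were called (2.74% higher). With dex, 3 of 5 stromal markers were called higher and their summed level went from 4009 to 5583 CPM with saline to 6807 to 8245 CPM with dex. Likewise 2 of 5 peritubular markers were called higher (1131 to 1256 CPM, then 1439 to 1606 CPM). Of the macrophage markers 2 of 6 were called lower (55.0 ± 16.8 CPM summed with saline and 22.0 ± 2.97 with dex). Of the Leydig markers 1 of 7 was, Star (534.7 to 616 CPM, then 480 to 592 CPM summed). All 7 Leydig markers had negative log2 fold changes, with a median of -0.37, where 51.2% of all genes did. Their sum was led by Nr5a1, at 8833 ± 666 counts in saline soma, followed by Hsd3b1 at 943 ± 195 counts. In saline somatic replicates 1 to 3, Nr5a1 read 8469, 9602 and 8428 counts and Hsd3b1 1115, 732 and 983. The 2 genes did not rise and fall together. The Leydig sum in soma thus mostly gives Nr5a1, and how far that gene marks Leydig cells alone was not tested. Of 5 endothelial and 4 erythroid markers tested, 1 and 2 were called lower. No Sertoli marker of 7 and no germ cell marker of 6 tested was called. Their part in the somatic values of Scd1 and the other genes was not tested. In germ libraries no tested marker of these 7 somatic types was called with dex, where 1.25% of all genes were called. Of the summed levels, 4 did not overlap between saline and dex. Among single genes 20.1% did not overlap, and how often sums of other genes separate was not counted. Summed Leydig markers stood at 15.9 ± 1.41 CPM with saline and 10.6 ± 1.80 CPM with dex, summed Sertoli markers at 41.2 ± 3.97 and 29.5 ± 5.68 CPM, and summed erythroid markers at 8.52 ± 0.767 and 5.84 ± 1.51 CPM. Summed peritubular markers went the other way, at 13.7 to 20.7 CPM with saline and 23.4 to 26.5 CPM with dex, while stromal, macrophage and endothelial sums overlapped. Their part in the germ cell values was not tested either.

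**Figure D4:**
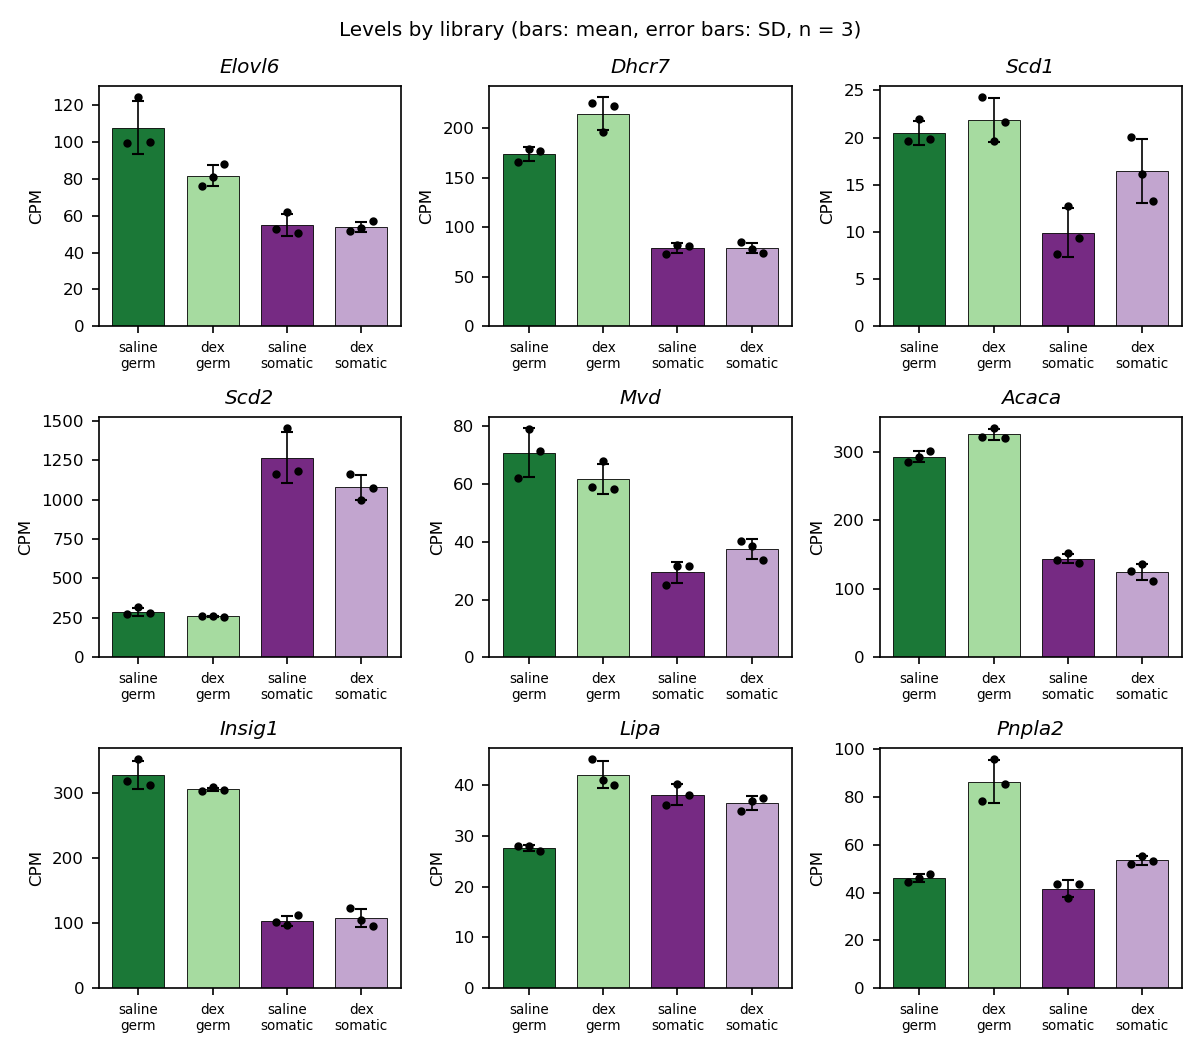
Level in CPM of 9 genes in each library (points) with the group mean (bars from 0) and SD (error bars, n = 3). All dex germ libraries lie below the saline germ libraries for Elovl6 and above them for Dhcr7, Lipa and Pnpla2, and Scd2 in soma, at 999 to 1451 CPM, lies above every germ library.

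The difference between the dex effects of germ and somatic cells was tested over all 12 libraries. None of the 31 genes passed it by edgeR, where 0.827% of 20551 genes did. At an unadjusted p under 0.05 there were 8 (5 with a higher effect in germ cells and 3 with a lower one), against 13.3% of all genes (7.81% and 5.47%), and DESeq2 called 1, Mvd. In germ libraries Mvd had 70.9 ± 8.37 CPM with saline and 61.8 ± 5.24 CPM with dex, and in somatic libraries 29.4 ± 3.69 and 37.5 ± 3.44 CPM. The germ effect minus the somatic effect was -0.56 ± 0.172 on the log2 scale (adjusted p = 0.157 by edgeR and 0.0421 by DESeq2). Acaca had 0.35 ± 0.110 (adjusted p = 0.163), Scap 0.26 ± 0.1000 (adjusted p = 0.270) and Elovl6 -0.37 ± 0.149 (adjusted p = 0.287). For Scd1, called in soma alone, the difference was -0.64 ± 0.269 (adjusted p = 0.308), so that a difference between populations was not shown.

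65 further genes of lipid metabolism were counted beside the 31, and 62 of them were tested in each comparison of dex with saline. They comprised SREBP-processing, isoprenoid, sterol-handling, further fatty acid, and glycerolipid genes. Between saline germ and somatic cells, 50 of 62 were called, 16 higher and 34 lower in germ cells. That is 80.6%, where 76.5% of all genes were called (39.8% higher and 36.7% lower). In dex-treated germ cells 2 of 62 were called, Pnpla2 and Lipa, both higher, where 1.25% of all genes were called. Pnpla2, which encodes the lipase that starts the breakdown of stored triglyceride, read 44.4, 46.0 and 47.6 CPM with saline and 78.0, 95.6 and 85.5 CPM with dex (log2 fold change 0.90 ± 0.0948, adjusted p = 0.0004). Lipa, which encodes the lysosomal lipase that frees cholesterol from its esters, read 28.1, 28.0 and 27.0 CPM with saline and 45.0, 41.1 and 39.9 CPM with dex (0.59 ± 0.106, adjusted p = 0.0142). In both genes every dex library was above every saline library. The Lipa call was lost with the replicate number as a block (adjusted p = 0.0574) and in the fits that left out dex replicate 1 (0.0678), saline replicate 1 (0.0837) or saline replicate 2 (0.0734).

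In dex-treated soma 5 of 62 were called, 3 higher and 2 lower, where 3.91% of all genes were called (2.74% higher). Cyp27a1, a sterol hydroxylase gene of cholesterol removal, read 98.6, 94.5 and 90.9 CPM with saline and 176, 179.7 and 176 CPM with dex (log2 fold change 0.94 ± 0.0799, adjusted p = 6.5e-06). Vldlr, a lipoprotein receptor gene, rose by 0.85 ± 0.177 on the log2 scale (17.4 ± 4.80 to 30.6 ± 4.92 CPM, adjusted p = 0.0114), and Dgat2, an acyltransferase gene of triglyceride synthesis, by 0.96 ± 0.242 (6.59 ± 1.08 to 12.5 ± 3.69 CPM, adjusted p = 0.0366). Abcg1, a cholesterol exporter gene, fell from 29.1 ± 2.08 to 16.7 ± 3.62 CPM (-0.76 ± 0.160, adjusted p = 0.0124). Mlxipl, which encodes the glucose-responsive activator of fatty acid genes ChREBP, fell from 86.5 ± 5.54 to 55.8 ± 9.17 CPM (-0.60 ± 0.119, adjusted p = 0.00881). The Cyp27a1 call held in every fit that left out a library. Vldlr lost its call with all 12 libraries in 1 fit (adjusted p = 0.0630) and without dex replicate 2 or saline replicate 3 (up to 0.0702), Abcg1 and Mlxipl without saline replicate 3 (0.0789 and 0.0646), and Dgat2 in each such fit but that without dex replicate 3 (up to 0.173).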

How the data were processed

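Per the submitters' processing notes and the study's methods, poly-dT-selected mRNA was sequenced as paired ends, aligned to mm10 with HISAT2 2.0.5 and assigned to genes with featureCounts 1.5.0-p3, and the authors compared groups with DESeq2 1.20.0. The annotation release and strand setting are not given in the sources used here. The deposited counts are raw reads per gene, and the deposited FPKM values are per length and depth. The authors' result tables of fold changes and p-values were not used.

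Counts were tested in R 4.3.3 with edgeR 4.0.16 (quasi-likelihood F test, TMM, filterByExpr with a minimum count of 10), on the 6 libraries of each comparison, and on all 12 for the difference of dex effects. P-values were adjusted over all genes tested. SE is the log2 fold change divided by the square root of F. DESeq2 1.42.0 and other scalings, filters, a replicate block and left-out libraries were alternatives. The difference between replicates exceeded counting noise in every group (chi-square per degree of freedom 6.11 to 20.3), and 3 counts, the limit a count of 0 allows, were 0.114 to 0.165 CPM a library, for counting error only. Scripts were tested on simulated counts.

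Members and lists were chosen with earlier results of these data known. Genes were named by rule: in each dex comparison the 8 members with the smallest p plus Srebf1, Srebf2, Insig1, Insig2 and Lpin1; between populations the 6 largest called rises and falls; for the difference, called members or the 4 smallest p; and other pathway genes called with dex. Other members between populations, and Scd1 in the difference, are given for completeness. Marker, glucocorticoid and further lipid genes were fixed lists from general knowledge, also chosen with those earlier results known.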

Additional observations from a re-analysis of the deposited data

Results flagged for a closer look

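The dex effect on Lipa, the lysosomal acid lipase gene, differed between germ and somatic cells by the test of the difference over all 12 libraries. The germ effect minus the somatic effect was 0.66 ± 0.145 SE on the log2 scale (adjusted p = 0.0451, edgeR). Lipa stood at 27.7 ± 0.594 CPM with saline and 42.0 ± 2.67 CPM with dex in germ cells, and at 38.1 ± 2.03 and 36.4 ± 1.42 CPM in soma. The adjusted p was 0.0518 with no filter on low counts and 0.0795 with the replicate number as a block, and it ran from 0.0649 to 0.107 over the 12 fits that left out a library, so that none of those fits called it. None of the 31 sterol and fatty acid synthesis genes met the same rule.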

How the results depend on the processing

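Between saline populations, 27 of the 31 genes were called with DESeq2, RLE factors, either setting of the filter, the replicate block and all 12 libraries in 1 fit, 28 with library totals (Fdps was added at 0.48), 26 to 27 when a library was left out, and 25 in the dex libraries. With no filter the median of the 31 genes (0.40) was below that of all genes (0.48), the reverse of the order in every other fit of this comparison. Library totals moved the median of all genes from 0.07 to 0.21 and that of the 31 genes to 0.48, and turned Hmgcs1 to 0.0397. Left-out libraries gave 13964 to 14851 calls and a median of 0.28 to 0.42 for the 31 genes, and put Sqle between -0.0583 and 0.0862. In the dex libraries, an alternative chosen after seeing the data, Acat2 was at -0.0131. For dex in germ cells, where 231 genes were called, DESeq2 called 711 and 2 of the 31, no filter 767 and 2, library totals 1 of the 31 (Dhcr7), the replicate block 65, and all 12 libraries 142. Left-out libraries gave 49 to 265 calls (49, 75, 102 and 115 without saline replicates 1 and 2 and dex replicates 3 and 1), 0 to 1 of the 31, and a median of -0.00057 to 0.06. For dex in soma, where 655 were called, no filter gave 1061, and library totals and all 12 libraries gave 0 of the 31. Left-out libraries gave 354 to 547 calls (354, 383 and 398 without saline replicates 3 and 1 and dex replicate 2), 0 to 1 of the 31 and a median of -0.03 to 0.05. Library totals moved the share of higher calls from 70.1% to 53.5% in soma, from 59.3% to 69.3% in germ cells and from 50% to 67.0% in the difference, and put Insig2 in soma at -0.0035. That share was also 52.3% in soma with all 12 libraries and 47.7% in germ cells with no filter, and over left-out libraries it ran from 69.3% to 81.1% in soma, 43.0% to 65.3% in germ cells and 34.6% to 54.7% in the difference. Left-out libraries put Insig1 in soma between -0.0126 and 0.17, Insig2 between -0.0134 and 0.15, and Srebf2 between -0.0855 and 0.0506. For the difference of dex effects, where 170 were called, DESeq2 called 648 and 1 of the 31, no filter 706, at least 10 counts in every library 262, and the replicate block 104. Left-out libraries gave 79 to 172 calls, 0 of the 31, and a median of -0.04 to 0.05. Whether replicate numbers pair the libraries was not settled. Same-numbered dex and saline libraries of a population correlated at -0.0876 to 0.0440. Same-numbered saline germ and somatic libraries correlated at 0.0366 to 0.0450, each best with its own number. Dex germ and somatic libraries did so at -0.0164 to -0.00286, none best with its own number. Both fractions were sorted from testes, so libraries of a number and treatment may share a pool, and the main fits treated them as separate. The block changed no call among the 31 genes, and Dgat2 in soma and Lipa lost theirs (adjusted p 0.0582 and 0.0574). The cause of these changes was not tested. Low counts limit Ebp and Tm7sf2 in germ cells, where SEs of a dex effect were 0.336 and 0.361.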
